A study of Homo sapiens with 12 samples.

Results

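The 10 genes of the neuronal cytoskeleton followed here through the PEG10 transfections were the intermediate filament genes *NEFL*, *NEFM*, *NEFH* and *INA*, the microtubule genes *MAP1B*, *MAP2*, *TUBB3* and *STMN2*, and the doublecortin-like kinases *DCLK1* and *DCLK2*. They were chosen by name and are 10 of the 26485 gene symbols counted. All 10 passed the filter on low counts, as did 17176 genes in all, although *STMN2* did so with few reads. The cells were HEK293, a human line from embryonic kidney, labelled wild type, and every library came from a transient plasmid transfection. The 4 groups of 3 replicates received LifeAct-Dendra2 (control, a peptide that binds actin joined to a fluorescent protein), PEG10 gag-pol, PEG10 gag or PEG10 NC, the nucleocapsid fragment at the C-terminal end of gag. The series describes the 3 replicates of a construct as separate passages of the cells. In bulk RNA from such cultures, more cells expressing a gene and more RNA per cell cannot be told apart.

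Neurofilaments are built from light, medium and heavy chains (*NEFL*, *NEFM*, *NEFH*) together with alpha-internexin (*INA*), and they set the calibre of axons. Microtubules of neurons contain beta-III tubulin (*TUBB3*) and carry associated proteins, of which MAP2 marks dendrites and MAP1B growing axons, while stathmin-2 (*STMN2*) binds free tubulin dimers in growth cones. DCLK1 and DCLK2 join doublecortin domains, which bind microtubules, to a protein kinase domain, and *DCLK1* was examined by name in the study with these same libraries, so its values here are no independent evidence. HEK293 cells are known to carry some neuronal transcripts in spite of their kidney origin.

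*DCLK1* lies on the reverse strand of chromosome 13 of GRCh38, from 35768652 to 36131382 (ENSG00000133083.15 in GENCODE release 44). From the RefSeq promoter table, windows were taken for 6 of the 10 genes, namely *DCLK1*, *DCLK2*, *INA*, *MAP1B*, *MAP2* and *TUBB3*, with 3 windows for *DCLK1*. That the other genes are left out here does not mean that RefSeq lacks windows for them. The pair of *DCLK1* windows printed here ends at starts 275.7 kb apart, the inner of them within the gene, and gene-level counts sum the transcripts of all starts. *DCLK2* is shown as the paralog that was not called against control, and *MAP1B* as a gene that rose with NC. Each line gives the 250 bases before a RefSeq start (GRCh38.p14) from 5′ to 3′ on the strand of the gene, and capitals mark the motif TATAAA, the motif GGGCGG and the motif CCAAT on either strand, none of which overlap each other in these windows.
DCLK1, upstream start, chr13:36131383-36131632, reverse strand: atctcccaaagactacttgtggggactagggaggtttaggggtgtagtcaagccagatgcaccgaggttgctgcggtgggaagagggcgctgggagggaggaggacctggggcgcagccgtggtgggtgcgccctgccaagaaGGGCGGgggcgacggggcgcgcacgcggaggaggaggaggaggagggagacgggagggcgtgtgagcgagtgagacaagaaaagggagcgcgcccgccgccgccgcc
DCLK1, inner start, chr13:35855668-35855917, reverse strand: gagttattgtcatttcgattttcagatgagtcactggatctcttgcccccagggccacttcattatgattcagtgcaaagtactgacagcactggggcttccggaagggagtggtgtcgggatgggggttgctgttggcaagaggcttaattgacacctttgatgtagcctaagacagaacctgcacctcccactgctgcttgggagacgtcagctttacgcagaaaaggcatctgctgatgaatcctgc
DCLK2, chr4:150078195-150078444, forward strand: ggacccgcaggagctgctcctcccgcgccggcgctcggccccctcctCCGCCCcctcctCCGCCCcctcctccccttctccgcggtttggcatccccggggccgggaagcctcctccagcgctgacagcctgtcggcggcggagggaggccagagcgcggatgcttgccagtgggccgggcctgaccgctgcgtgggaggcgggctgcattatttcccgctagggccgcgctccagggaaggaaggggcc
MAP1B, chr5:72107225-72107474, forward strand: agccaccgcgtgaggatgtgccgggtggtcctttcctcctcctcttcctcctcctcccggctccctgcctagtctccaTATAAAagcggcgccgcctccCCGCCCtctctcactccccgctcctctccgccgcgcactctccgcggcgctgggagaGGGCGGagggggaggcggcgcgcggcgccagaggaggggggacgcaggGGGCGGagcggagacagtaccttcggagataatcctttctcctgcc
The upstream *DCLK1* window held 1 GGGCGG and was 68.8% G and C, and the inner window held none of the 3 motifs and was 50.8% G and C. The last *DCLK1* window, further upstream and not printed, held none of the motifs either and was 54.0% G and C. *DCLK2* had 2 GGGCGG matches in a window of 75.2% G and C. The *MAP1B* window printed had 1 TATAAA and 3 GGGCGG matches, and a second *MAP1B* window, not printed, had 1 and 2. Over the 35116 windows of the table, 42.6% held GGGCGG, 10.7% held TATAAA and 32.0% held CCAAT, and the median G and C content was 58.0%. These matches describe the letters only.

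The libraries held 30625725 to 45316749 counts. *PEG10* took 0.0230 to 0.0346% of the counts in control, 0.238 to 0.389% in NC, 3.78 to 6.10% in gag and 2.80 to 7.35% in gag-pol libraries, which sets all PEG10 libraries above control and does not tell gag from gag-pol. Replicates of a construct differed by 34.1 to 114 chi-square units per degree of freedom, far beyond counting noise. Of the markers chosen for HEK293, all 5 were present in every library, and their sum in CPM (counts scaled to a common library total) was 803 to 905 in control, 937 to 1073 in NC, 830 to 852 in gag and 903 to 931 in gag-pol libraries. The NC sums do not overlap control, and *VIM* alone held 426 to 672 CPM over the 12 libraries. The other HEK293 markers, *PAX2*, *LHX1*, *KRT8* and *KRT18*, were not called with NC, at log2 values of 0.16, 0.21, 0.10 and 0.10. *VIM* rose by 0.36 with NC and *LHX1* by 0.55 with gag-pol on the log2 scale (edgeR adjusted p of 0.00969 and 0.0359). The 7 markers of mature neurons summed to 61.8 to 79.7 CPM in control, 55.8 to 74.9 in NC, 51.1 to 71.2 in gag and 58.2 to 69.5 in gag-pol libraries, ranges that overlap. Among them *GAD1* and *SYP* were counted in every library and *ELAVL4* was at 0 in 8 of 12. *RBFOX3* rose with gag-pol by 0.77 on the log2 scale and *SNAP25* had -0.63, with edgeR adjusted p of 0.00326 and 0.0230. The other neuronal markers tested, *SYT1*, *SLC17A7*, *GAD1* and *SYP*, were not called with gag-pol, at -0.39, -0.39, 0.08 and -0.10. *SNAP25* had -0.45 with gag and -0.44 with NC, and *RBFOX3* 0.34 and 0.27, none of them called. The 4 glial markers summed to 30.3 to 44.5 CPM in control, 38.0 to 45.8 in NC, 36.7 to 50.6 in gag and 47.9 to 54.7 in gag-pol libraries, of which the last do not overlap control. *OLIG2* rose by 0.93 on the log2 scale with gag-pol and by 0.78 with gag (edgeR adjusted p of 0.00028 and 0.00387). The other glial markers, *GFAP*, *AQP4* and *MBP*, were not called with either. Their log2 values were -0.07, 0.47 and 0.31 with gag-pol and 0.44, -0.21 and 0.13 with gag. The 4 fibroblast markers, with *DCN* at 0 in 9 of 12 libraries, summed to 25.7 to 54.4 CPM in control, 16.8 to 26.3 in NC, 24.8 to 27.2 in gag and 20.8 to 28.5 in gag-pol libraries. *COL3A1* had log2 values of -1.63 for gag-pol and -1.65 for NC, and *COL1A1* -0.55 for NC (edgeR adjusted p of 0.0170, 0.0167 and 0.0224). With gag *COL3A1* had -1.27 and was not called (adjusted p = 0.141 in edgeR). *COL1A1* had -0.28 with gag-pol and -0.27 with gag, neither called. Over the 12 libraries the median of *COL3A1* was 1.27 CPM and its highest value 10.3, and those of *COL1A1* were 24.3 and 44.1. The 3 leukocyte markers summed to 13.1 to 19.1 CPM in control and the 4 kidney tubule and podocyte markers to 27.7 to 69.8. For both sets the sums of all groups overlapped, and *UMOD* of the kidney set was at 0 in 12 of 12 libraries. The part of these markers in the results was not tested.

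Per length of exon, the filament light chain and the microtubule protein of growing axons led the 10 genes. In control, *NEFL* reached 38.2 ± 14.8 CPM per kb of exon (SD, n = 3), *MAP1B* 21.1 ± 8.72 and *INA* 15.6 ± 3.64 on this scale of levels. *DCLK2* followed with 7.52 ± 1.64, *TUBB3* with 2.33 ± 0.469 and *DCLK1* with 1.35 ± 0.516. The lowest levels were those of *NEFM* at 0.696 ± 0.0958, *NEFH* at 0.599 ± 0.524, *MAP2* at 0.252 ± 0.0504 and *STMN2* at 0.137 ± 0.0741. The ranges of neighbours in this order overlapped in control between *NEFL* and *MAP1B*, *MAP1B* and *INA*, *NEFM* and *NEFH*, and *NEFH* and *MAP2*. *NEFL* and *MAP1B* were the first and second of the 10 by mean in every group. The exons of all annotated transcripts were joined for the length, 14.37 kb for *DCLK1* against 4.42 kb for *DCLK2*, so a level per length depends on which transcripts the cells use.

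**Figure D1:**
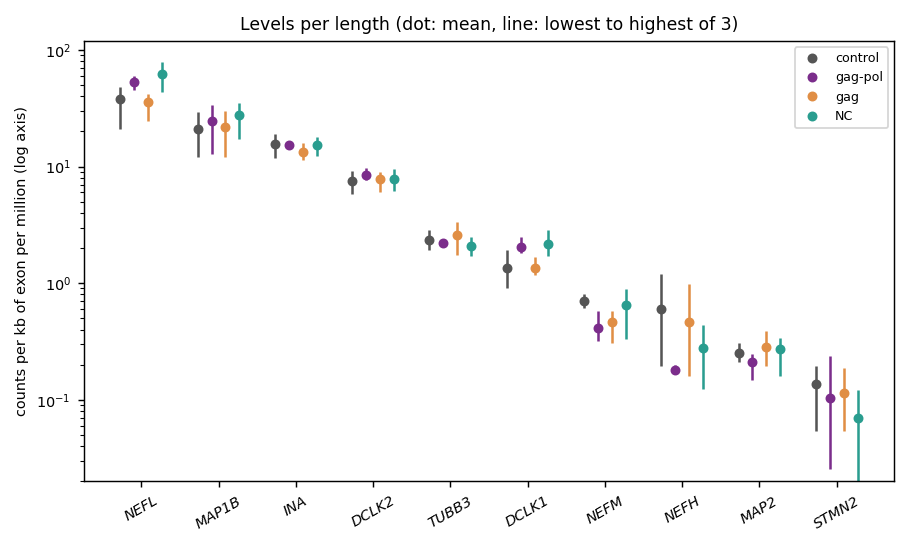
Level of each gene in CPM per kb of joined exons on a log axis, ordered by the control mean; dots are means and lines run from the lowest to the highest of 3 libraries per construct. *NEFL* stands highest with every construct, and the line of *STMN2* with NC reaches 0, below the axis.

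Against control, 3 of the 10 genes were called with gag-pol, where 11.3% of all 17176 genes were. Of them, 2 were higher (5.48% of all genes) and 1 was lower (5.83%). With NC, 3 of 10 were called where 11.2% of all genes were, and all 3 were higher (6.04% of all genes). *DCLK1* and *NEFL* rose with both constructs, *MAP1B* passed with NC and *NEFH* fell with gag-pol. With gag, 0 of 10 passed edgeR's test, where 1.08% of all genes did, and DESeq2 called 0 as well. At an unadjusted p under 0.05 in edgeR with gag were 1 member (*INA*) and 2347 of all 17176 genes. The median log2 fold change of the 10 for gag-pol, gag and NC was -0.03, -0.02 and 0.02, and that of all genes was -0.0014, 0.0027 and 0.0040. These comparisons share the control libraries. Tested over the 3 constructs together, *DCLK1*, *NEFL* and *MAP1B* differed, 3 of 10 where 20.6% of all genes did. The calls rest on the replicate number as a term of the model: without it, edgeR called 0 of 10 in each of these comparisons.

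*DCLK1* was counted 634, 1165 and 455 times in control replicates 1, 2 and 3, 977, 1373 and 1140 times with gag-pol, 533, 925 and 618 times with gag and 903, 1644 and 978 times with NC. As normalized counts (scaled to the mean library size) these were 658, 1034 and 489 in control and 984, 1339 and 979.9 with gag-pol. They were 644, 906 and 636 with gag and 926, 1529 and 1077 with NC. Replicate 2 was the highest library of every construct, and control replicate 2 lay above gag-pol replicates 1 and 3, so the groups overlapped. Within replicates 1, 2 and 3, the ratio of gag-pol to control was 1.495, 1.30 and 2.00, and that of NC to control was 1.41, 1.48 and 2.20. The log2 fold change of *DCLK1* was 0.63 with gag-pol (SE 0.12, adjusted p = 0.00175 in edgeR) and 0.72 with NC (SE 0.12, adjusted p = 0.00101 in edgeR), higher in 3 of 3 replicates. With gag it was 0.03 (95% interval -0.21 to 0.28, adjusted p = 0.942 in edgeR), and gag was higher in 1 of 3 replicates. Without control replicate 3, the lowest library, the log2 fold changes were 0.47 with gag-pol and 0.55 with NC, and both were still called.

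Compared with gag directly, *DCLK1* was higher with gag-pol by 0.60 on the log2 scale (SE 0.12, adjusted p = 0.00565 in edgeR) and with NC by 0.68 (SE 0.12, adjusted p = 0.00088 in edgeR). The ratio of gag-pol to gag was 1.53, 1.48 and 1.54 in replicates 1, 2 and 3, a narrower spread than that of gag-pol to control. Neither gag-pol nor NC overlapped with gag, where 12.7% and 14.4% of all genes have no overlap in these comparisons. NC and gag-pol differed by 0.08 on the log2 scale (95% interval -0.16 to 0.32, adjusted p = 0.868 in edgeR), an interval that leaves room for a fold of 0.898 to 1.25. Leaving out replicate 1 of every construct ended the call between gag-pol and gag (log2 difference 0.61, adjusted p = 0.112 in edgeR).

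*DCLK2*, on chromosome 4 from 150078445 to 150257438, had a normalized count of 969, 1512 and 1262 in control, 1279.8, 1615 and 1356 with gag-pol, 1002, 1478 and 1440.2 with gag and 1018, 1271 and 1579.7 with NC. All 4 groups overlapped. Against control its log2 fold change was 0.20 for gag-pol (95% interval -0.02 to 0.42), 0.07 for gag (-0.16 to 0.29) and 0.05 for NC (-0.17 to 0.27), with edgeR adjusted p of 0.235, 0.853 and 0.806. Of the other doublecortin genes, named after their values were seen, *DCLK3* averaged 39.5 normalized counts in control and had a log2 fold change of 0.55 with gag-pol (adjusted p = 0.352 in edgeR). *DCX*, which encodes doublecortin, averaged 4.52 in control and did not pass the filter on low counts.

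**Figure D2:**
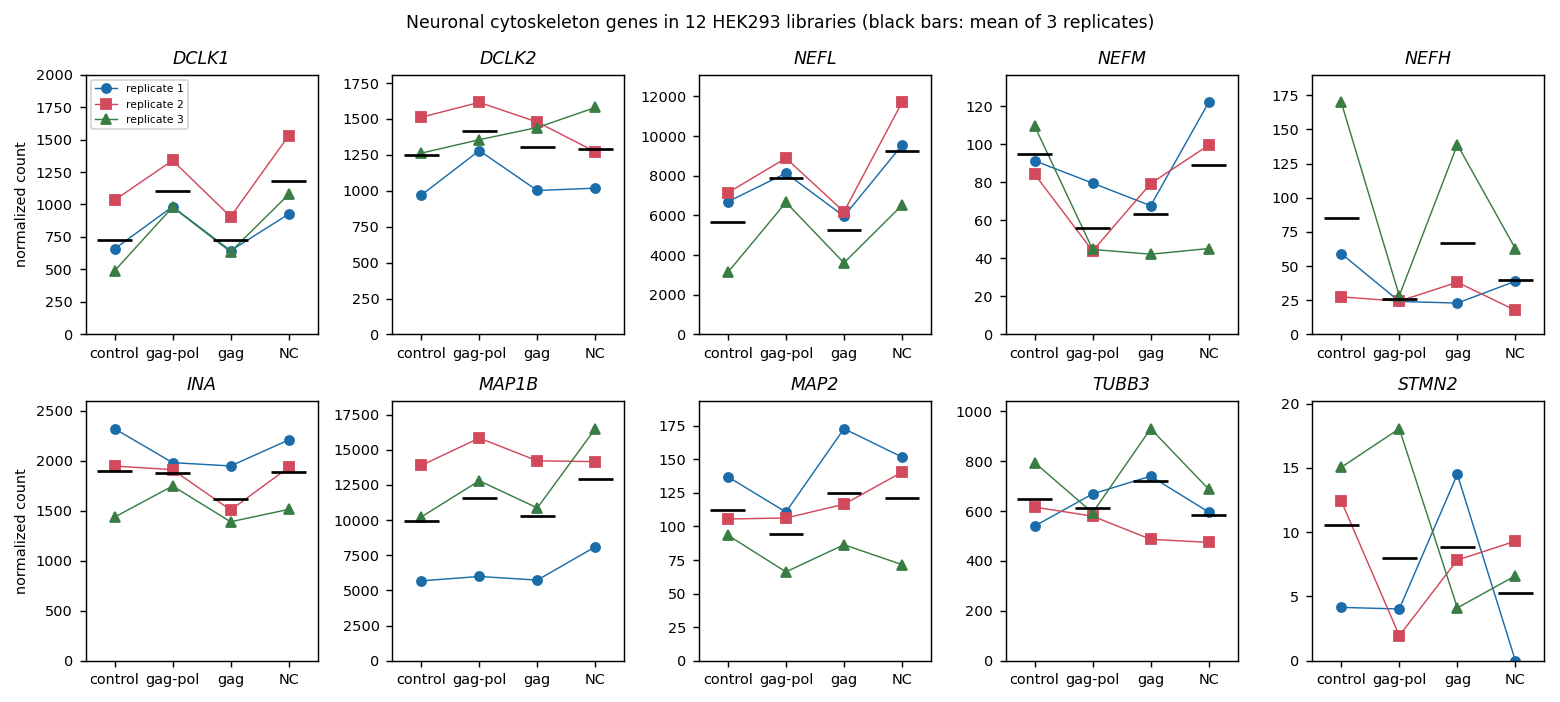
Normalized count of the 10 genes in each of the 12 libraries by construct, with a line through the libraries of the same replicate number and a black bar at the mean of 3. The lines of *DCLK1* and *NEFL* rise from control to gag-pol and from gag to NC in all 3 replicates, and those of *MAP1B* lie apart by replicate.

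Of the 4 filament genes, *NEFL* was the most abundant, ahead of *INA*, and the only 1 called higher against control. It lies on chromosome 8 and was counted 6448, 8055 and 2916 times in control, 8070, 9110 and 7748 times with gag-pol, 4929, 6314 and 3509 times with gag and 9306, 12577 and 5913 times with NC. The normalized counts of *NEFL* were 6691, 7146 and 3134 in control, 8126, 8885 and 6660 with gag-pol, 5957, 6185 and 3610 with gag and 9540, 11696 and 6514 with NC. Replicate 3 was the lowest library of each construct, and control replicate 3 was the lowest of all 12 libraries. The log2 fold change against control was 0.56 with gag-pol (SE 0.12, adjusted p = 0.00868 in edgeR) and 0.75 with NC (SE 0.12, adjusted p = 0.00243 in edgeR), higher in 3 of 3 replicates. Within replicates 1, 2 and 3 the ratio to control was 1.21, 1.24 and 2.13 with gag-pol and 1.43, 1.64 and 2.08 with NC. Without replicate 3 of all constructs the log2 fold change with gag-pol was 0.29, and its adjusted p of 0.0322 in edgeR still passed.

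With gag, *NEFL* had a log2 fold change of -0.07 against control (95% interval -0.32 to 0.18, adjusted p = 0.858 in edgeR). Against gag it was higher by 0.63 with gag-pol and by 0.82 with NC on the log2 scale (SE 0.12 each), with edgeR adjusted p of 0.00866 and 0.00090. Neither construct overlapped with gag, where 12.7% and 14.4% of all genes have no overlap in these comparisons. Without gag replicate 1 the difference of gag-pol from gag had an adjusted p of 0.0507 in edgeR at a log2 value of 0.66. Leaving out replicate 1 of every construct gave 0.0714 in edgeR at a log2 value of 0.73. Between NC and gag-pol the log2 difference was 0.19 (95% interval -0.06 to 0.44, adjusted p = 0.629 in edgeR). Without gag-pol replicate 3 that difference was 0.37 and was called, with an adjusted p of 0.0495 in edgeR.

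*NEFH*, the heavy chain, lies on chromosome 22 from 29480218 to 29491390 and had few reads. Its raw count was 57, 31 and 158 in control, 24, 25 and 33 with gag-pol, 19, 39 and 135 with gag and 38, 19 and 57 with NC. Replicate 3 was the highest library of each construct, and control and gag spread widely, whereas the 3 gag-pol libraries lay close together. The log2 fold change with gag-pol was -1.40 (95% interval -2.29 to -0.51, adjusted p = 0.0371 in edgeR), lower in 3 of 3 replicates with overlapping groups. That call was lost without control replicate 1 (log2 fold change -1.32), control replicate 3 (-1.11), gag-pol replicate 1 (-1.53) or gag-pol replicate 3 (-0.85), and on only the 6 libraries compared (adjusted p = 0.0581 in edgeR). It was also lost without replicate 1 of every construct (-1.44, adjusted p = 0.124 in edgeR) and without replicate 3 (-0.78, adjusted p = 0.475 in edgeR). With NC, *NEFH* had a log2 fold change of -0.93 (adjusted p = 0.142 in edgeR) and with gag -0.33 (adjusted p = 0.783 in edgeR).

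*NEFM*, the medium chain, was counted 88, 95 and 102 times in control, 79, 45 and 52 times with gag-pol, 56, 81 and 41 times with gag and 119, 107 and 41 times with NC. As normalized counts the control libraries held 84.3 to 109.6, above all 3 libraries of gag-pol (43.9 to 79.5) and of gag (42.2 to 79.3). Groups without overlap made up 13.5% of all genes with gag-pol and 7.09% with gag. For gag-pol, gag and NC the log2 fold changes of *NEFM* were -0.83, -0.64 and -0.19, with edgeR adjusted p of 0.0901, 0.374 and 0.748. Without control replicate 3, the highest of its group, these were -0.40, -0.23 and 0.21. *INA*, on chromosome 10 from 103277138 to 103290346, had 1902 ± 445 normalized counts in control, 1616 ± 295 for gag, 1886 ± 349.8 for NC and 1881 ± 119.8 for gag-pol (SD, n = 3). On the log2 scale gag differed from control by -0.23 (95% interval -0.42 to -0.03, unadjusted p = 0.0231 and adjusted p = 0.271 in edgeR), gag-pol by 0.01 (-0.18 to 0.20) and NC by -0.0054 (-0.20 to 0.19). *INA* was lower with gag in 3 of 3 replicates. Without a stated strand setting, *INA* cannot be told apart from *NT5C2* over the 452 exon bases they share on opposite strands. For the same reason the counts of *NEFL*, *NEFM* and *NEFH* are uncertain over the 19.8%, 26.4% and 9.04% of their exon bases that antisense noncoding genes share.

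**Figure D3:**
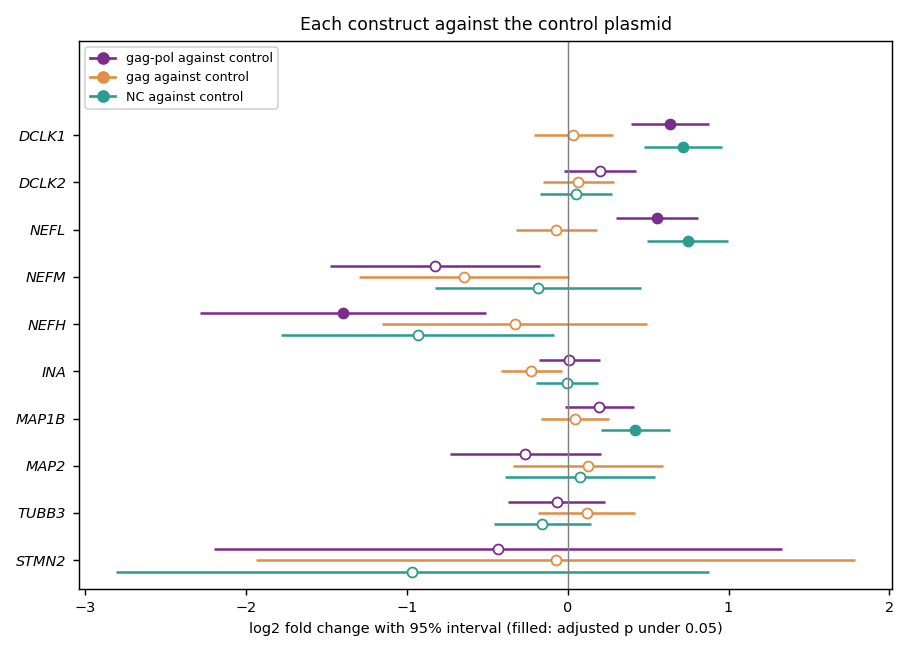
Log2 fold change of each gene against control with its 95% interval, in 3 colors for gag-pol, gag and NC; filled dots passed an adjusted p of 0.05. *DCLK1* and *NEFL* are filled to the right of 0 with gag-pol and NC, *MAP1B* with NC, and *NEFH* to the left with gag-pol, while all gag dots are open.

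Among the microtubule genes, *MAP1B*, on chromosome 5 from 72107234 to 72209565, differed most between replicates. It was counted 5475, 15649 and 9510 times in control, 5950, 16233 and 14889 times with gag-pol, 4744, 14510 and 10561 times with gag and 7903, 15225 and 14977 times with NC. Replicate 1 was the lowest library of every construct, and all 4 groups overlapped. With NC the ratio to control was 1.43, 1.02 and 1.61 in replicates 1, 2 and 3, and the log2 fold change was 0.42 (SE 0.10, adjusted p = 0.0139 in edgeR). With gag-pol it was 0.20 (95% interval -0.02 to 0.41, adjusted p = 0.221 in edgeR) and with gag 0.04 (95% interval -0.17 to 0.26, adjusted p = 0.903 in edgeR). NC exceeded gag by 0.38 on the log2 scale (SE 0.10, adjusted p = 0.0168 in edgeR), in 2 of 3 replicates. The call against control was lost without control replicate 3 (log2 fold change 0.35), NC replicate 1 (0.35) or NC replicate 3 (0.31). The call against gag was lost without gag replicate 1 (0.37), gag replicate 3 (0.33), NC replicate 1 (0.31) or NC replicate 3 (0.27). Both calls were also lost without replicate 1 of every construct (0.38 against control, 0.32 against gag) and without replicate 3 (0.28 and 0.26).

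*MAP2*, on chromosome 2 from 209424047 to 209734147, had 65 to 151 raw counts per library and overlapped in all 4 groups. For gag-pol, gag and NC its log2 fold changes against control were -0.26, 0.13 and 0.08, with edgeR adjusted p of 0.490, 0.870 and 0.870. *TUBB3*, on chromosome 16 from 89921392 to 89938761, held 649.8 ± 131 normalized counts in control, 586 ± 107 with NC, 719 ± 222 with gag and 614 ± 48.1 with gag-pol (SD, n = 3). The log2 fold changes for gag-pol, gag and NC, -0.07, 0.12 and -0.16, had 95% intervals of -0.37 to 0.23, -0.18 to 0.42 and -0.46 to 0.14. *TUBB3* shares 1584 exon bases with another coding gene on the same strand, and other tubulins resemble it closely, so its count is uncertain. *STMN2*, on chromosome 8, had 4, 14 and 14 reads in control, 4, 2 and 21 with gag-pol, 12, 8 and 4 with gag and 0, 10 and 6 with NC, and no difference was called. Its interval with gag-pol ran from -2.20 to 1.33 on the log2 scale.

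Among constructs, gag-pol and gag differed in 2 of the 10 genes, *DCLK1* and *NEFL*, where 6.46% of all genes did, both higher with gag-pol (3.03% of all genes). NC and gag differed in *DCLK1*, *NEFL* and *MAP1B*, 3 of 10 where 16.9% of all genes did, all higher with NC (8.76% of all genes). Between NC and gag-pol 0 of 10 differed in edgeR's test, where 0.0873% of all genes did, and DESeq2 called 0. An unadjusted p under 0.05 in edgeR was reached by 1 of the 10 (*MAP1B*, log2 difference 0.22) and by 1704 of all 17176 genes.

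The replicate number moved more of these genes than the construct did. By edgeR's test of the replicate terms, 8 of 10 differed between replicate numbers, where 52.8% of all genes did, the exceptions being *NEFM* and *STMN2*. *MAP1B* averaged 6377 ± 1158 normalized counts over the 4 replicate 1 libraries, 14522 ± 886 over replicate 2 and 12595 ± 2823 over replicate 3 (SD, n = 4). Its log2 difference between replicates 2 and 1 was 1.21 (SE 0.09), the largest of the *MAP1B* contrasts. *DCLK1* averaged 803 ± 177, 1202 ± 284 and 795 ± 279 over replicates 1, 2 and 3, and *NEFL* 7579 ± 1588, 8478 ± 2419 and 4979 ± 1867. *NEFH* went the other way, with 36.3 ± 16.9, 26.9 ± 8.56 and 99.96 ± 65.6. Of the variance of log2 CPM over the 12 libraries, construct held 53.5% for *DCLK1* and 46.5% for *NEFL* but 8.24% for *MAP1B*. Replicate number held 87.0% of the whole variance of *MAP1B*. The median gene had 27.9% for construct and 42.3% for replicate number.

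**Figure D4:**
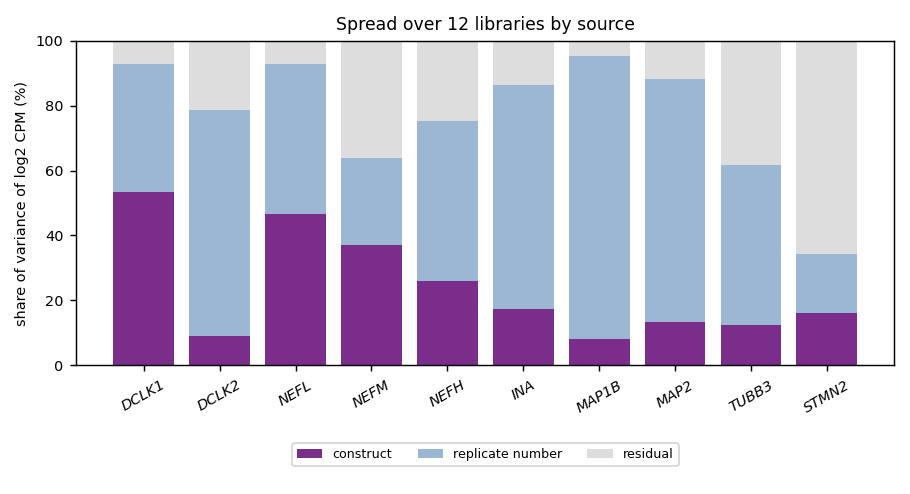
Share of the variance of log2 CPM over 12 libraries that goes with construct, with replicate number and with neither, as stacked bars that sum to 100%. Construct holds more than replicate number for *DCLK1* and *NEFM*, the 2 are close for *NEFL*, and replicate number fills most of the bars of *MAP1B*, *MAP2*, *DCLK2* and *INA*.

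Other genes of the axonal cytoskeleton were counted from lists set by function. The lists were chosen with earlier results of these data known, so their counts are no independent evidence. Of 24 tested genes for microtubule-associated and axonal proteins, 3 were higher and 1 lower with gag-pol, where 11.3% of all genes were called, and 5 were higher and 1 lower with NC, where 11.2% were. With gag 0 of the 24 passed in edgeR, where 1.08% of all genes did. At an unadjusted p under 0.05 in edgeR with gag were 3 of the 24, and 2347 of all 17176 genes. For gag-pol, gag and NC the median log2 fold change of the 24 was 0.14, -0.0084 and 0.15, against -0.0014, 0.0027 and 0.0040 over all genes. *DPYSL4*, of the collapsin response mediator family that acts in growth cone guidance, rose by 0.82 on the log2 scale with gag-pol and 0.74 with NC (SE 0.12 each), and *MAP6*, which stabilizes microtubules against cold, had 0.84 and 0.74 (SE 0.16 each). *STMN3*, a stathmin, had 0.35 and 0.43 (SE 0.08 each). *MAP1A*, the relative of *MAP1B* found in mature neurons, fell, with -0.64 with gag-pol and -0.72 with NC (SE 0.15 each). With gag it had -0.49 (SE 0.15, adjusted p = 0.129 in edgeR). Its differences from gag, -0.15 with gag-pol and -0.22 with NC, were not called. Against gag, 11 of the 24 were higher and 2 lower with NC, where 16.9% of all genes were called (8.76% higher), and 5 were higher and 0 lower with gag-pol, where 6.46% were (3.03% higher).

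Of 17 tubulins, 1 was lower and 0 higher with gag-pol, 1 was higher and 1 lower with NC, and 0 passed with gag in edgeR (2 at an unadjusted p under 0.05). For gag-pol, NC and gag these counts stand beside 11.3%, 11.2% and 1.08% of all genes called, and against control the share of the tubulins is below or near them. An unadjusted p under 0.05 in edgeR with gag was reached by 2347 of all 17176 genes. On the log2 scale *TUBA8* had -0.73 with gag-pol and -0.95 with NC (SE 0.22 and 0.23), and *TUBB2B*, a tubulin of developing neurons whose near copy *TUBB2A* makes its count uncertain, had 0.31 with NC (SE 0.09). Of 13 other intermediate filament genes, 1 was lower with gag-pol (*KRT10*, -0.30), 2 were higher and 1 lower with NC, and 0 passed with gag in edgeR (0 at an unadjusted p under 0.05), beside the same shares of all genes. *VIM*, which encodes vimentin, had 0.36 with NC, *LMNB1*, a nuclear lamin, 0.30, and *NES*, the filament of neural progenitors, -0.60, with edgeR adjusted p of 0.00969, 0.0276 and 0.0337. Compared with gag, 4 of the 17 tubulins were higher and 1 lower with NC, where 16.9% of all genes were called (8.76% higher). With gag-pol 2 tubulins were higher and 0 lower than with gag, where 6.46% of all genes were called (3.03% higher). Of the 13 filament genes, 1 was higher with NC and 1 lower with gag-pol than with gag.

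The genes whose pattern was most like that of *DCLK1*, by Pearson's r over the 12 libraries after the mean of each replicate number was removed, were *HILPDA* (0.983), *HSP90B1* (0.983), *CYFIP1* (0.981), *SERPINE2* (0.981) and *LAMC3* (0.980), the first 5 of 13418 genes compared. Against control these 5 had log2 fold changes of 0.28 to 0.49 for gag-pol, 0.30 to 0.55 for NC and -0.03 to 0.03 for gag. This pattern over the constructs follows from the choice by likeness to *DCLK1* in the same libraries and is no further result. Of the other 9 cytoskeleton genes, *NEFM*, *NEFH* and *STMN2* were too low to be compared, and of the 6 compared *NEFL* came closest, with r = 0.963 at rank 41, and *MAP1B* followed with r = 0.725 at rank 2210. *DCLK2* had r = 0.382, and *MAP2* had r = -0.47.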

How the data were processed

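HEK293 cells were transfected with LifeAct-Dendra2, PEG10 gag-pol, gag or NC, and poly(A) RNA was sequenced as read pairs. The authors mapped reads to GRCh38.p13 with STAR 2.7.3, sorted them with SAMtools 1.8 and deposited raw featureCounts counts per gene symbol. The annotation release, strand setting and treatment of reads with several map positions are not given in the sources used here. Total counts were 30625725 to 45316749 per library, and a difference in few reads is limited by counting error.

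Counts were fitted with edgeR 4.0.16 in R 4.3.3 (TMM, filterByExpr with a minimum count of 10 and a minimum total of 15, robust quasi-likelihood) on the 12 libraries together, with terms for construct and for replicate number and 6 residual degrees of freedom. The study modelled harvest date, for which the replicate number is taken to stand. After construct means were removed, the correlations of all 18 pairs with the same number (0.14 to 0.54) lay above those of the 36 other pairs (-0.50 to 0.07). P-values were adjusted by Benjamini-Hochberg over 17176 genes with a threshold of 0.05, and SE is the log2 fold change over the square root of F. Shares of variance come from a linear fit of log2 CPM with a prior count of 2. The fit was tested on simulated data. DESeq2 1.42.0, other scalings and filters, no replicate term, thinned counts, the 6 compared libraries and each library or replicate number left out were tried. The 10 genes were named throughout; of each list, called genes with the largest changes. The genes and lists were chosen with earlier results of these data known. Positions and lengths are from GENCODE release 44, promoter windows from RefSeq.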

Additional observations from a re-analysis of the deposited data

How the results depend on the processing

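The replicate number decided the calls. With no replicate block, the number of the 10 genes called fell from 3 to 0 for gag-pol and for NC against control, from 2 to 0 for gag-pol against gag, from 3 to 0 for NC against gag and from 3 to 0 for the 3 constructs together; the log2 fold changes of *DCLK1* were then 0.60 with gag-pol and 0.69 with NC. Every other setting that kept all libraries or the 6 compared ones (DESeq2, upper-quartile or RLE factors, leaving *PEG10* out, either other filter, estimation that is not robust, thinned counts) gave a count within 1.5 times of the reported one. Across fits lacking 1 library or 1 replicate number, the count ran from 2 to 3 for gag-pol and for NC against control, 0 to 0 for gag against control, 0 to 2 for gag-pol against gag, 2 to 3 for NC against gag, 0 to 1 for NC against gag-pol, 2 to 4 for the constructs together and 7 to 9 for the replicate number. The single libraries that moved a count by more than 1.5 times were gag replicate 1 (gag-pol against gag, 1 called) and gag-pol replicate 3 or NC replicate 2 (NC against gag-pol, 1 called each). For single genes, 1490 values were recomputed: 32 lost a call, 4 gained one and 0 reversed a call, while 75 values not called either way changed sign. *DCLK1* kept its calls against control with gag-pol and NC in all 15 such fits (adjusted p up to 0.0285 and 0.0153 in edgeR), as did *NEFL* (up to 0.0322 and 0.0212). Over all genes, calls without the block fell from 1942 to 2 for gag-pol and from 1922 to 2 for NC against control, and DESeq2 called 443 against 186 for gag against control and 124 against 15 for NC against gag-pol. The cause of the lost calls was not tested. *STMN2*, *NEFH* and *NEFM* had the fewest reads of the 10 genes along with *MAP2*, at most 21, 158, 119 and 151 in a library, and whether depth limits their tests was not tested.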
